A study of Mus musculus with 9 samples.

Results

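DNA replication and S-phase genes were followed as 1 set in an NIH3T3 mouse fibroblast line that carries part of human MLKL, hMLKL1-181-2Fv-NIH3T3. The set was a fixed list of 45 genes, and 43 of them had a probe set with 1 gene symbol among the 22180 genes that could be measured this way. Rfc4, a clamp loader subunit gene, and Ccne2, a cyclin E gene, share their probe sets with another gene's symbol and were not analysed here. Each gene was represented by its brightest probe set over all 9 arrays, and only Fen1, Pole, Rpa1 and Rrm2 had more than 1 to choose from.

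Necroptosis is a lytic form of cell death carried out by the pseudokinase MLKL. The dimerizer B/B draws Fv domains together and so brings the fused MLKL fragments into contact. The 3 groups had 3 arrays each. The control group has no treatment stated beyond the word control. The B/B 1 h group received 50 nM B/B for 1 h and was then sorted for annexin V, which binds phosphatidylserine on the outer face of the membrane. The washout group was treated and sorted likewise and then kept for 6 h of washout, for which the design gives 3000 nM and no compound name. All 3 groups carry the transgene. The labels do not give its promoter, say whether the line is 1 clone, say whether control cells were sorted, or say when they were harvested, so B/B, sorting and time in culture cannot be told apart in a comparison with control. They also do not say whether the arrays of a group came from separate cultures, so the p-values measure the spread between these samples, which may be technical.

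DNA is replicated once per cell cycle in 2 separate steps. In G1, the origin recognition complex, Cdc6 and Cdt1 load the Mcm2-7 helicase onto origins, which is called licensing. In S phase, kinases together with Mcm10, Cdc45 and the GINS complex turn the loaded helicase on, and polymerases, the sliding clamp, its loader and the single-strand binding protein RPA copy the DNA. Most of these genes are transcribed at the G1/S boundary by E2F factors, which pocket proteins such as Rb hold in check until cyclin kinases act. The values below are levels of RNA on a log2 scale in a whole population of cells, so fewer cells in S phase and less RNA per cell cannot be told apart.

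The arrays were alike in scale. Array medians lay between 4.60 and 4.68, and correlations across genes, which are not independent replicates, ran from 0.998 to 0.999 within a group and from 0.990 to 0.998 between groups. B/B 1 h replicate 1 had the lowest array weight, 0.563. By mean signal, the 11 fibroblast markers lay at percentiles 63.6 to 100 of all genes, 12 leukocyte markers at 14.0 to 81.3, 11 epithelial markers at 15.8 to 59.8 and 11 endothelial markers at 9.68 to 61.1. Brightness differs between probes, so these ranks do not set the amount of one transcript against another. With 3 arrays a group, precision is limited by that number.

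The replication genes fell between 1 h of B/B and 6 h of washout, and 1 of them was past the threshold at 1 h. After washout, 39 of the 43 genes were lower than in control, 1 was higher and 3 did not pass the threshold (limma moderated test, Benjamini-Hochberg adjusted p under 0.05 over all 22180 genes). Of all genes, 11.7% were lower and 14.5% higher, 26.2% in all. All 43 replication genes lay at or above the median level of all genes, and among the 11090 genes at that level 21.8% were lower and 26.4% higher. The median log2 difference of the set was -0.44, against 0.00 for all genes, and 12 of the 39 fell by more than 1.5-fold, 1 of them by more than 2-fold. The 3 washout arrays lay below all 3 control arrays in 40 of the genes and above them in 2, where 17.8% and 20.2% of all genes did so (38% in all). By the moderated F-test over the 3 groups, 39 of the 43 differed, where 29.5% of all genes did.

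At 1 h, 0 of the 43 were higher and 1 was lower, where 1.01% of all genes were higher and 1.88% lower in limma at the same threshold (2.89% in all; 1.61% and 3.51% of genes at or above the median level). At an unadjusted p under 0.05, limma gave 1 higher and 11 lower. The share of all genes under that limit was not counted, here or for the unadjusted counts of the lists below. Such counts are thus no result about the set or the lists. The median difference of the set at 1 h was -0.05, against 0.00 for all genes and -0.03 for those at or above the median level. Of the 43, 31 stood below control and 12 above. The share of all genes below control was not counted, so this split is no result about the set. The 1 h arrays lay above all controls in 5 genes and below them in 13, where 9% and 12.3% of all genes did so (21.3% in all). From 1 h to washout, 32 fell and 1 rose, where 12% and 16.6% of all genes did so (28.6% in all; 20.3% and 30.8% of genes at or above the median level), with a median difference of -0.31. The washout arrays lay below all 1 h arrays in 37 genes and above them in 2, where 18.4% and 21.1% of all genes did so (39.6% in all). This comparison and the one with control share the washout arrays, so their values are given side by side and neither supports the other. The mean over the 43 genes lay at 9.34 to 9.38 on the control arrays, 9.26 to 9.32 on the B/B 1 h arrays and 8.91 to 8.94 on the washout arrays. The spread within a group was small, with a median SD over the genes of 0.0337, 0.0422 and 0.0482 (log2, n = 3) in the control, B/B 1 h and washout groups.

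**Figure D1:**
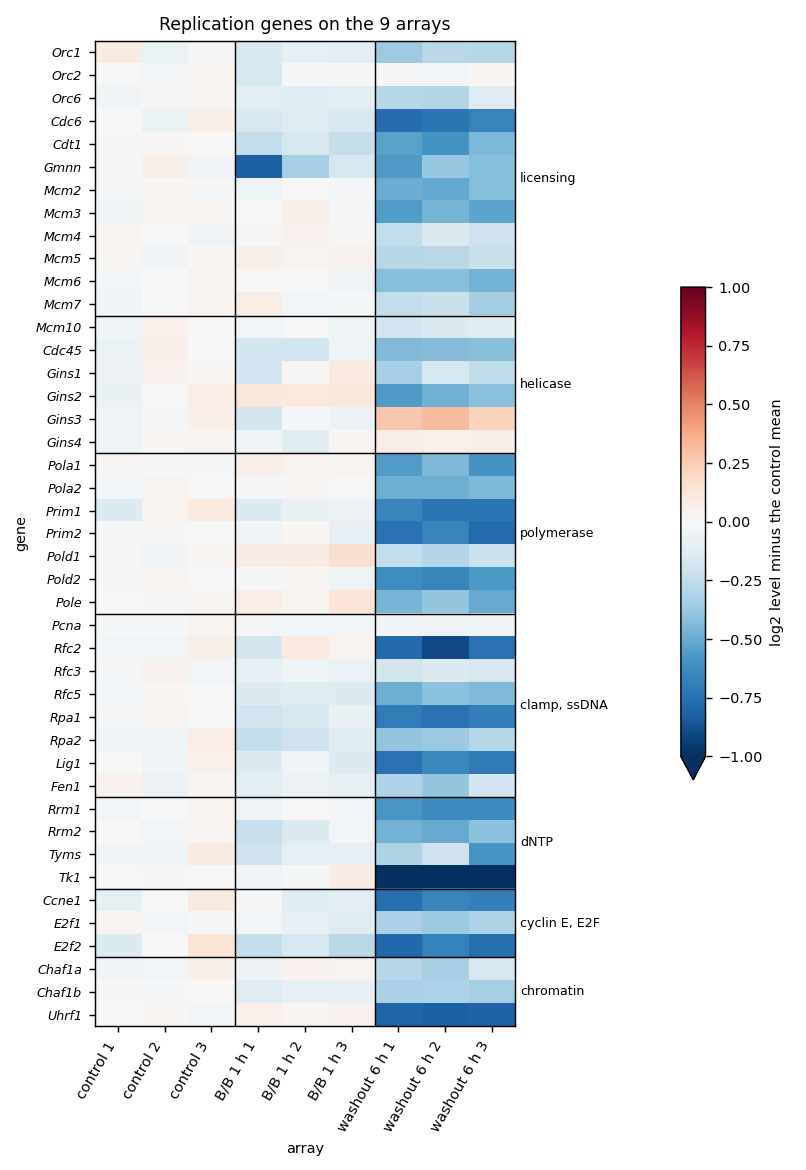
Log2 level minus the gene's own control mean for 43 replication genes (rows, by role) on the 9 arrays (columns), in blue below and red above control, with the colour scale ending at -1. The washout columns are blue in nearly every row, except Gins3, which is red, and Gins4, Orc2 and Pcna, which are close to white.

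Promoter sequence was set beside these changes because E2F factors are known to bind many of these genes. The promoter table from RefSeq on GRCm38.p6 gives 250 bases before and 50 after each start, and it held 35 of the 43 genes. Not matched were Gmnn, Mcm4, Gins1, Gins2, Gins4, Prim2, Pole and Rfc2. The E2F-type words searched were TTTGGCGC, TTTCCCGC, TTTGCCGC and TTTCGCGC, on both strands, where matches may overlap. At least 1 word lay in a promoter of 14 of the 35 genes (40.0%), against 2.60% of the 27025 genes in the table and 4.88% of the 8785 whose level was at or above the median. The 5 letters CCAAT, searched likewise, lay in 23 of the 35 (65.7%), against 41.1% of all genes and 43.0% of those at or above the median level.

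The falls are given here by whether a word was found, with no test. The 14 genes with an E2F-type word had a median washout difference of -0.48 (-0.81 to 0.27), of which 13 fell, and the 21 without one had a median of -0.43 (-1.33 to -0.01), of which 19 fell. A match is only a string of letters and shows no binding. Below, the 190 bases before the start are printed 5′ to 3′ for 6 of the genes that fell and hold a word there (Uhrf1, Cdc6, Mcm5, Mcm6, Pola1 and Orc1), for Tk1, which fell furthest and holds none in its window, and for Gins3, which rose and holds one. Uhrf1 has 2 starts in the promoter table, and the one printed was taken because it holds a word. No E2F-type word was found at its other start. Capitals mark the E2F-type words.
Tk1, chr11:117826015-117826204, minus strand: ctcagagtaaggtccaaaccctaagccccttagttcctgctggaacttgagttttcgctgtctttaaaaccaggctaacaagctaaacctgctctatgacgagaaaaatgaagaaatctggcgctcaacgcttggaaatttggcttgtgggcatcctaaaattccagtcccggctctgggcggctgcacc
Uhrf1, chr17:56304123-56304312, plus strand: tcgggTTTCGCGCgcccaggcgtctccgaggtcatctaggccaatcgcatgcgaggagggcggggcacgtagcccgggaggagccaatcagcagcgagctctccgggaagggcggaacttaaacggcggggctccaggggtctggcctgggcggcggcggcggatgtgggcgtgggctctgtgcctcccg
Cdc6, chr11:98907961-98908150, plus strand: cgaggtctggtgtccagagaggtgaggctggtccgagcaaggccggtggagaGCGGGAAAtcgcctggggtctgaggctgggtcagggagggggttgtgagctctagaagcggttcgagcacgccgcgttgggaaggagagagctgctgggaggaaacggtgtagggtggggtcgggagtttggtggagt
Mcm5, chr8:75109319-75109508, plus strand: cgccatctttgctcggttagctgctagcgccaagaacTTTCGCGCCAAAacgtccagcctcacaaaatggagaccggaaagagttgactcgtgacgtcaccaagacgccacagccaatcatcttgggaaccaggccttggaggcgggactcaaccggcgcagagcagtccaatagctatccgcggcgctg
Mcm6, chr1:128359706-128359895, minus strand: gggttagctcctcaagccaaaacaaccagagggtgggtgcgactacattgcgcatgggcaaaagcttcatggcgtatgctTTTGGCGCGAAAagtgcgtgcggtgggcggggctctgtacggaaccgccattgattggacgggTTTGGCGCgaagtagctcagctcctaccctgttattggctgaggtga
Pola1, chrX:93632156-93632345, minus strand: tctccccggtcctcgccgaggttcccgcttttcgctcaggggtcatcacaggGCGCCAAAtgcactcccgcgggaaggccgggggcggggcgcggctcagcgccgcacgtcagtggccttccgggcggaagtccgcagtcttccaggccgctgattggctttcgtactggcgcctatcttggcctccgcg
Orc1, chr4:108579264-108579453, plus strand: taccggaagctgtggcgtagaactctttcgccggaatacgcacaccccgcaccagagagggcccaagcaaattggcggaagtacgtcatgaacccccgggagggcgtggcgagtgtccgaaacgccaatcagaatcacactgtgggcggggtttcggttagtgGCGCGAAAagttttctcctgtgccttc
Gins3, chr8:95633369-95633558, plus strand: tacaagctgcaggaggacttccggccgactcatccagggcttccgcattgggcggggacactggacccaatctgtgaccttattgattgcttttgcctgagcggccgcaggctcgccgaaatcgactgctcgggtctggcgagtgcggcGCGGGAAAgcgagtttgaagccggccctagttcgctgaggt
In Mcm5 and Mcm6 the 12 capitals in a row are 2 overlapping words on opposite strands, and Mcm6 holds a further word that begins 47 bases before the start. In Cdc6 and Pola1 the word begins 138 bases before the start, in Uhrf1 185, in Gins3 41 and in Orc1 27. Cdt1, E2f2, Lig1, Mcm3 and Pold1 held a word only after the start.

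Origin licensing genes were lower after washout, 11 of 12. Cdc6, an ATPase that helps load the helicase at the origin, fell furthest, by 0.72 ± 0.0472 (log2, SE). It read 9.75, 9.68 and 9.80 in control, 9.58, 9.61 and 9.59 at 1 h and 8.98, 9.02 and 9.08 after washout (log2). The 3 groups did not overlap, with B/B 1 h between the others, and the 1 h difference was -0.15 (limma adjusted p 0.129).

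Cdt1, which carries the helicase to the origin and is destroyed in S phase, was the only one of the 43 genes past the threshold at 1 h. It read 10.67, 10.70 and 10.69 in control, 10.44, 10.51 and 10.45 at 1 h and 10.15, 10.09 and 10.24 after washout (log2). The groups stood in 3 separate steps, -0.22 ± 0.048 at 1 h (limma adjusted p 0.0466) and -0.53 ± 0.048 after washout (log2, SE; limma adjusted p 3.38e-05). The 1 h call was lost without any of the control or B/B 1 h arrays, without washout replicate 1 or 2, with array weights, when the third group was dropped from the fit and at an adjusted p under 0.01, with limma adjusted p up to 0.136. The call after washout was kept in every one of the 18 alternatives. Gmnn, whose protein geminin binds and blocks Cdt1, read 6.82, 6.90 and 6.81 in control, 6.03, 6.50 and 6.66 at 1 h and 6.27, 6.46 and 6.41 after washout (log2). Its B/B 1 h arrays were widely spread, with replicate 1 the lowest of all 9, and the 1 h value was -0.45 ± 0.136 (log2, SE; limma adjusted p 0.122), and did not pass the threshold. Without replicate 1 it was -0.26 (limma adjusted p 0.145), and without B/B 1 h replicate 3 it was -0.58 (0.0478). After washout it stood at -0.46 (limma adjusted p 0.033), and that call was lost without any of the 3 control or 3 washout arrays (up to 0.111).

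All 6 subunits of the Mcm2-7 helicase fell after washout, each by less than 1.5-fold. Mcm3 fell by 0.52, Mcm2 by 0.48, Mcm6 by 0.44, Mcm7 by 0.27, Mcm5 by 0.26 and Mcm4 by 0.19 (log2). Mcm4, with the smallest fall, read 11.30, 11.27 and 11.23 in control, 11.28, 11.31 and 11.28 at 1 h and 11.02, 11.13 and 11.06 after washout (log2). Its washout arrays still lay below all 6 others. None of the 6 had a 1 h difference past the threshold, with values from -0.02 to 0.05. The 95% intervals of Mcm3, -0.62 to -0.41, and of Mcm4, -0.29 to -0.10, did not meet, and the difference between the genes was not itself tested. Mcm4 was also the brightest of the 6, at percentile 98.5 of all genes by mean signal. Whether brightness bears on the size of a fall was not tested.

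The origin recognition complex was less even. Orc1, the cell-cycle regulated ATPase subunit, fell by 0.31 and Orc6, its smallest subunit, by 0.23 (log2). Orc6 read 9.06, 9.11 and 9.12 in control, 8.99, 8.97 and 8.99 at 1 h and 8.81, 8.81 and 8.97 after washout (log2). Its washout arrays lay below control but reached the B/B 1 h level, and from 1 h to washout it stood at -0.12 (limma adjusted p 0.114). Orc2, a core subunit, read 8.73, 8.70 and 8.76 in control, 8.55, 8.71 and 8.71 at 1 h and 8.71, 8.70 and 8.75 after washout (log2). The 3 groups overlapped, at -0.01 against control (95% interval -0.12 to 0.11; limma adjusted p 0.938).

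Among the genes that switch the helicase on, GINS subunits moved in opposite directions. GINS is a ring of 4 different proteins that sits with Cdc45 on Mcm2-7. Gins2 fell by 0.49 ± 0.0536 (log2, SE) after washout, with 9.46, 9.54 and 9.61 in control, 9.66, 9.64 and 9.66 at 1 h and 8.97, 9.06 and 9.12 after washout (log2). Its B/B 1 h arrays lay above all controls, at 0.12 (limma adjusted p 0.287), and its washout arrays below every other. Gins3 rose by 0.27 ± 0.0561 (log2, SE; limma adjusted p 0.00505), the only rise in the set. It read 8.17, 8.21 and 8.29 in control, 8.04, 8.20 and 8.16 at 1 h and 8.49, 8.54 and 8.45 after washout (log2), and each washout array lay above the other 6. The call held in all 18 alternatives, in both the comparison with control and that with 1 h.

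Gins4 stood above all control arrays without passing the threshold, at 0.06 (95% interval -0.04 to 0.17; limma adjusted p 0.432), and Gins1 stood at -0.25 (limma adjusted p 0.0402). Cdc45, the helicase cofactor, fell by 0.43 ± 0.0547 (log2, SE). Its arrays were 8.40, 8.54 and 8.46 in control, 8.27, 8.27 and 8.42 at 1 h and 8.03, 8.04 and 8.04 after washout (log2), with the washout arrays below every other. Mcm10, which takes part in helicase activation, fell by 0.15, from 8.54, 8.63 and 8.58 in control to 8.40, 8.44 and 8.47 after washout (log2), with 8.55, 8.59 and 8.54 at 1 h. These 2 small falls, of Mcm10 and Gins1, were the unsure ones: the group's count of 4 lower of 6 was 2 without control replicate 2 or 3 or washout replicate 1 and at an adjusted p under 0.01. Mcm10 was also lost without washout replicate 2 (limma adjusted p up to 0.105), and Gins1 without control 1, without B/B 1 h array 2, without washout array 3 and with array medians centred (up to 0.137).

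**Figure D2:**
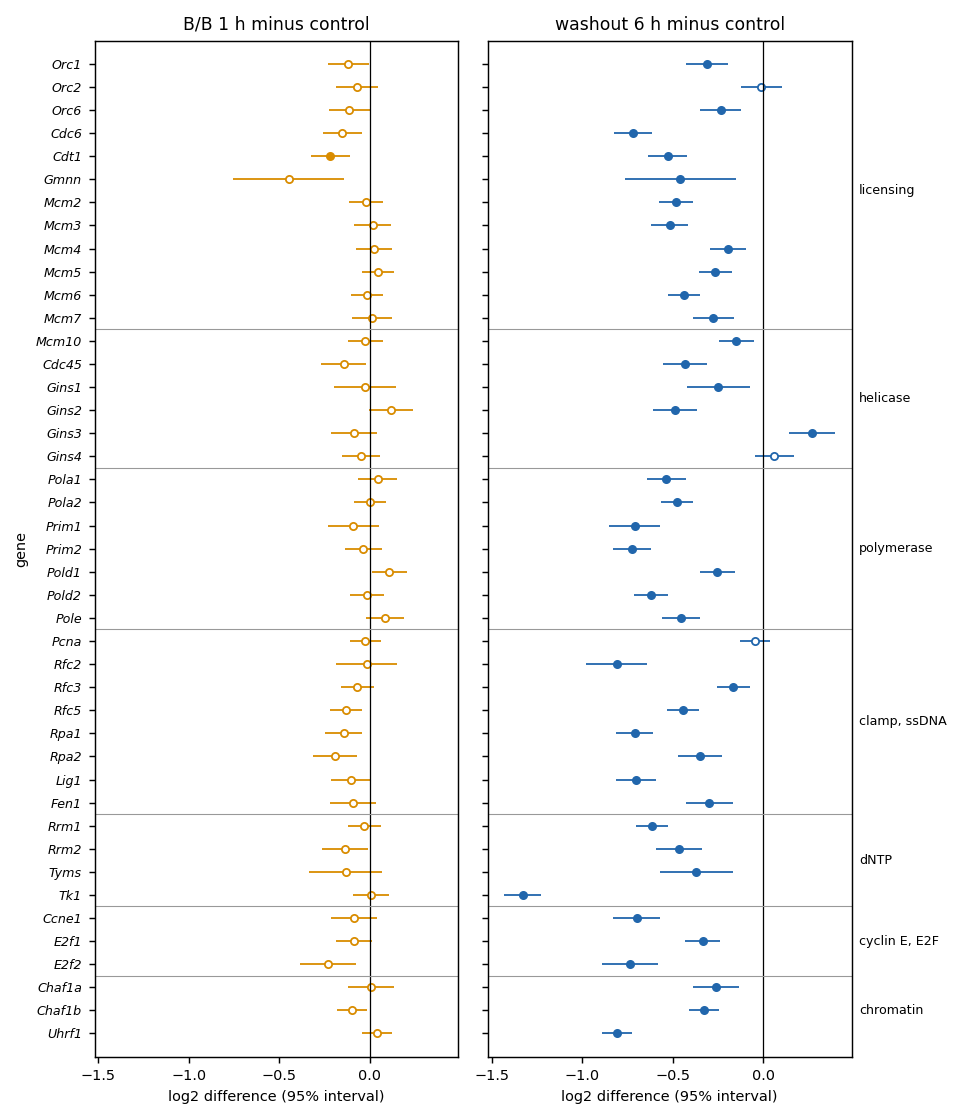
Log2 difference from control of 43 replication genes (rows, by role) at B/B 1 h (left) and after washout (right), with 95% intervals from the limma fit, filled where adjusted p was under 0.05. At 1 h only Cdt1 is filled and points lie around 0, and after washout 39 filled points lie below 0 with Tk1 lowest at -1.33 and Gins3 alone filled above it at 0.27.

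Polymerase and primase genes fell as a whole group, 7 of 7, against control and against 1 h. Prim2 and Prim1, the 2 primase subunits that lay down the RNA primer, fell by 0.72 and 0.71 (log2), or 1.65-fold and 1.64-fold. Prim2 read 9.88, 9.91 and 9.91 in control, 9.87, 9.92 and 9.82 at 1 h and 9.16, 9.24 and 9.13 after washout (log2). Prim1 read 8.87, 9.04 and 9.12 in control, 8.87, 8.94 and 8.95 at 1 h and 8.35, 8.28 and 8.28 after washout (log2). In both genes control and 1 h overlapped and washout lay apart from them.

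Pold2, an accessory subunit of the lagging strand polymerase delta, fell by 0.62, and Pola1 and Pola2, subunits of the polymerase alpha that extends the primer, by 0.53 and 0.47 (log2). Pole, the catalytic subunit of the leading strand polymerase, read 9.22, 9.20 and 9.25 in control, 9.30, 9.26 and 9.36 at 1 h and 8.76, 8.83 and 8.72 after washout (log2), a fall of 0.45. With its 2 probe sets averaged the fall was 0.29 against control and 0.27 against 1 h, where the brighter probe set gave 0.54, and both calls were kept. Pold1, the catalytic subunit of polymerase delta, changed least, with 8.02, 7.97 and 8.04 in control, 8.09, 8.09 and 8.17 at 1 h and 7.77, 7.72 and 7.79 after washout (log2) and a fall of 0.25 (limma adjusted p 0.00176). Pold1 and Pole both stood above every control array at 1 h, by 0.11 and 0.09, which did not pass the threshold (limma adjusted p 0.225 and 0.36). Their washout arrays lay below both other groups.

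Of the clamp, clamp loader, RPA and lagging strand genes, 7 of 8 fell. Rfc2, a subunit of the clamp loader that opens the PCNA ring, fell 1.75-fold, or by 0.81 ± 0.0748 (log2, SE). It read 8.35, 8.35 and 8.44 in control, 8.19, 8.47 and 8.41 at 1 h and 7.60, 7.48 and 7.63 after washout (log2). Another loader subunit, Rfc3, moved much less, with 8.87, 8.93 and 8.86 in control, 8.78, 8.84 and 8.82 at 1 h and 8.70, 8.74 and 8.71 after washout (log2) and a difference of -0.16 (limma adjusted p 0.013), a call lost without control replicate 2 (0.0522) and at an adjusted p under 0.01. Rfc5 stood between them at -0.44. The intervals of Rfc2, -0.98 to -0.64, and Rfc3, -0.26 to -0.07, did not meet, again with no test between the genes.

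Rpa1, the large subunit of RPA, fell by 0.71 and Rpa2, its middle subunit, by 0.35 (log2). Over the 18 alternatives Rpa1 stood between -0.73 and -0.50 against control, with its call kept. The Rpa1 arrays were 9.52, 9.56 and 9.53 in control, 9.33, 9.38 and 9.46 at 1 h and 8.84, 8.79 and 8.85 after washout (log2), where the 3 groups did not overlap. From 1 h to washout Rpa1 fell by 0.57, or by 0.31 with its probe sets averaged. Rpa2 already stood below all control arrays at 1 h, at -0.19 (limma adjusted p 0.0971; 0.0456 with a variance trend). Lig1, the ligase that seals Okazaki fragments, fell by 0.70 (log2). Fen1, the nuclease that trims their flaps, read 7.86, 7.75 and 7.85 in control, 7.71, 7.76 and 7.73 at 1 h and 7.51, 7.43 and 7.63 after washout (log2), at -0.30 against control (limma adjusted p 0.00321), and was not past the threshold when its 2 probe sets were averaged (0.0966).

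Pcna, the sliding clamp itself, stayed within a narrow band. It read 11.66, 11.67 and 11.71 in control, 11.66, 11.66 and 11.66 at 1 h and 11.64, 11.64 and 11.64 after washout (log2). The washout arrays all lay below the controls, with a mean difference of -0.04 (95% interval -0.13 to 0.04; limma adjusted p 0.485), so that a fall of the size seen in its loader subunit Rfc2 lies outside the interval. Pcna had the highest mean signal of the set, at percentile 99.3 of all genes. Whether brightness bears on the size of its difference was not tested.

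Genes that supply deoxynucleotides held the largest fall of the set, and all 4 fell after washout. Tk1, the thymidine kinase of the salvage pathway, fell 2.51-fold, or by 1.33 ± 0.0447 (log2, SE; limma adjusted p 9.27e-08). It read 9.90, 9.92 and 9.90 in control, 9.86, 9.89 and 9.99 at 1 h and 8.59, 8.59 and 8.55 after washout (log2), with a 1 h difference of 0.01. The drop lay wholly between 1 h and washout, at -1.33 (limma adjusted p 6.17e-08).

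Rrm1 and Rrm2, the large and small subunits of ribonucleotide reductase, fell by 0.61 and 0.46 (log2). Over the 18 alternatives Rrm2 stood between -0.49 and -0.33 against control, with its call kept. Rrm1 read 10.97, 10.98 and 11.03 in control, 10.94, 10.99 and 10.96 at 1 h and 10.41, 10.37 and 10.36 after washout (log2). Rrm2 read 10.31, 10.28 and 10.33 in control, 10.07, 10.16 and 10.28 at 1 h and 9.83, 9.80 and 9.90 after washout (log2). Both had washout arrays below all others, while their control and 1 h arrays overlapped. From 1 h to washout Rrm2 fell by 0.33, or by 0.20 with its probe sets averaged. Tyms, which makes thymidylate anew, was more spread, with 8.64, 8.64 and 8.77 in control, 8.48, 8.59 and 8.58 at 1 h and 8.37, 8.47 and 8.10 after washout (log2). Its fall of 0.37 was lost without control replicate 3 (limma adjusted p 0.0508) and at an adjusted p under 0.01, and from 1 h to washout it stood at -0.24 (limma adjusted p 0.0822).

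**Figure D3:**
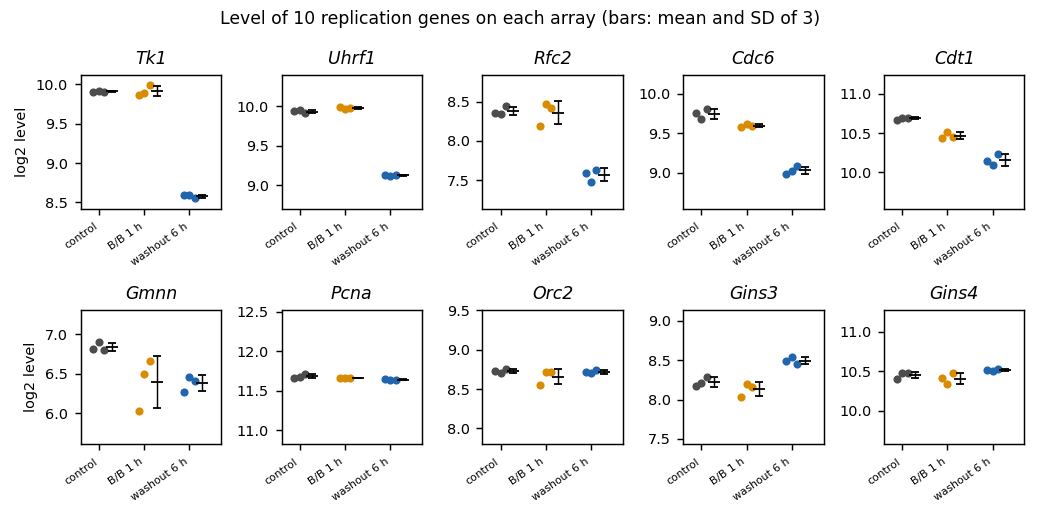
Log2 level (y axis, panels of equal height) of 10 replication genes on the 3 control, 3 B/B 1 h and 3 washout arrays, with the mean and SD of each group to the right of its points. Tk1, Uhrf1, Rfc2 and Cdc6 drop only or mainly in the washout group, Cdt1 steps down in both intervals, Gmnn scatters at 1 h, Pcna, Orc2 and Gins4 stay near level and Gins3 rises.

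The E2F and cyclin E genes that stand upstream of this programme fell as well, 3 of 3. E2f2 and E2f1 encode activating E2F factors and Ccne1 the cyclin that drives Cdk2 at the start of S phase. E2f2 fell by 0.74 ± 0.0687 and Ccne1 by 0.70 ± 0.0574 (log2, SE). E2f2 read 6.16, 6.29 and 6.43 in control, 6.05, 6.12 and 6.02 at 1 h and 5.51, 5.62 and 5.54 after washout (log2). Its 3 groups did not overlap, and the 1 h difference was -0.23 (limma adjusted p 0.112). Ccne1 read 9.46, 9.56 and 9.65 in control, 9.54, 9.44 and 9.44 at 1 h and 8.81, 8.90 and 8.88 after washout (log2). E2f1 read 9.26, 9.20 and 9.21 in control, 9.20, 9.13 and 9.09 at 1 h and 8.90, 8.86 and 8.92 after washout (log2), a fall of 0.33. In both, washout lay below the other groups.

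Genes that rebuild chromatin behind the fork were lower too, 3 of 3. Uhrf1, which recognises hemimethylated DNA and recruits the maintenance methyltransferase, fell 1.75-fold. It read 9.94, 9.95 and 9.91 in control, 9.99, 9.96 and 9.97 at 1 h and 9.13, 9.12 and 9.12 after washout (log2), with the washout arrays far below the rest, and the fall of 0.81 ± 0.0368 (log2, SE) had a limma adjusted p of 5.45e-07. Chaf1a and Chaf1b, subunits of the CAF-1 histone chaperone, fell by 0.26 and 0.33 (log2). Chaf1a read 8.42, 8.43 and 8.51 in control, 8.39, 8.50 and 8.49 at 1 h and 8.17, 8.13 and 8.29 after washout (log2). Chaf1b read 9.81, 9.79 and 9.79 in control, 9.67, 9.71 and 9.72 at 1 h and 9.47, 9.48 and 9.45 after washout (log2). The 3 groups of Chaf1b did not overlap, with 1 h between the others, while Chaf1a overlapped between control and 1 h.

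The direct comparison of washout with 1 h, in which both groups were sorted, again placed Tk1 lowest. The washout itself, its 3000 nM of an unnamed compound and the 6 h after sorting cannot be told apart in it. Besides Tk1, the largest falls were Uhrf1 at -0.85, Rfc2 at -0.79, Prim2 at -0.69, Prim1 at -0.62 and Ccne1 at -0.61 (log2). Gmnn and Orc2 stood at -0.01 and 0.06, neither past the threshold. Calls for Orc1 and Fen1, at -0.19 and -0.21, were lost without B/B 1 h array 2 or 3, without washout array 1 and with array medians centred, and Fen1 also without washout replicate 2 and with its probe sets averaged (limma adjusted p up to 0.0829 and 0.0778). Both also exceeded the stricter limit of 0.01. The calls of the other 31 of 33 were lost in none of the 18 alternatives.

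Related genes outside the set were read from 7 lists with 129 measured genes. After washout 67 of the 129 were lower (51.9%) and 16 higher (12.4%). Of all genes 11.7% were lower and 14.5% higher, and 21.8% and 26.4% of those at or above the median level. The count of higher genes is thus near the share of all genes and no result about the lists. Among other licensing, firing and replisome genes, 16 were lower (51.6%) and 5 higher (16.1%) of 31. Pclaf, a PCNA-associated factor, fell by 0.73, and Timeless and Tipin, which form the fork protection complex, fell by 0.49 each (log2). The count of 5 higher was 3 without control replicate 1 or 2 or washout replicate 2 and at an adjusted p under 0.01. Of other chromatin copying genes, 6 were lower (66.7%) and 1 higher (11.1%) of 9. Hells, a chromatin remodeler, and Dnmt1, the maintenance DNA methyltransferase, fell by 0.63 and 0.39, and Asf1a, a histone chaperone, rose by 0.40 (log2).

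Other deoxynucleotide genes had 9 lower (64.3%) and 2 higher (14.3%) of 14, where 11.7% and 14.5% of all genes did so. Of genes at or above the median level, 21.8% were lower and 26.4% higher. Nme1, a nucleoside diphosphate kinase, fell by 1.07 and Mthfd1, a folate enzyme, by 0.68, while Tk2, the mitochondrial thymidine kinase, rose by 1.01 (log2). The thymidine kinases thus moved in opposite directions: Tk2 read 7.84, 7.61 and 7.64 in control, 7.33, 7.54 and 7.45 at 1 h and 8.62, 8.76 and 8.75 after washout (log2), and its washout arrays lay above all others. Of S-phase checkpoint and repair genes, 7 were lower (43.8%) and 0 higher of 16 (limma; 9 and 0 at unadjusted p under 0.05). Wee1, a kinase that restrains Cdk1, stood at -0.97, and Fanci and Fancd2, partners in crosslink repair, at -0.91 and -0.45 (log2).

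E2F and pocket protein regulators had 6 lower (37.5%) and 4 higher (25%) of 16. Of all genes 11.7% were lower and 14.5% higher, and 21.8% and 26.4% of those at or above the median level. The share that was higher is near the last of these and is no result about this list. The 6 lower genes were 3 at an adjusted p under 0.01. They were 4 without control replicate 2 or 3 or washout replicate 1 or 2. E2f8, an atypical repressor that is itself an S-phase gene, fell by 0.48, while E2f5, a repressor E2F, and Tfdp2, an E2F dimer partner, rose by 0.64 and 0.53 (log2). G1/S kinases, cyclins and inhibitors had 5 lower (26.3%) and 4 higher (21.1%) of 19, near the 21.8% and 26.4% of all genes at or above the median level. The 5 were 8 with a variance trend, and the 4 were 2 without control replicate 2 or 3, with array medians centred and at an adjusted p under 0.01. Ccnd3, a D-type cyclin, Cdk2, the partner of cyclin E, and Cdkn2d, a Cdk4/6 inhibitor, fell by 0.66, 0.60 and 0.59 (log2). Cdkn1a, which encodes the inhibitor p21, read 11.75 ± 0.0453 in control and 11.67 ± 0.0221 after washout (log2 mean ± SD, n = 3), with an adjusted p from limma of 0.226.

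Myc and cyclin D1 did not follow the replication genes. Myc, a growth-promoting transcription factor gene, read 10.09, 10.10 and 10.18 in control, 10.60, 10.67 and 10.68 at 1 h and 10.29, 10.35 and 10.39 after washout (log2). It rose by 0.53 at 1 h and by 0.22 after washout (limma adjusted p 0.000305 and 0.00563), with the 1 h arrays highest. Ccnd1, the D-type cyclin that starts the passage through G1, stood at 0.15 after washout (limma adjusted p 0.0224), a call lost without control replicate 2 or 3 or washout replicate 1 and with array medians centred (up to 0.0845).

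Mitotic genes fell alongside, where 11.7% of all genes were lower and 14.5% higher. Of genes at or above the median level, 21.8% were lower and 26.4% higher. Of the 24 mitotic genes, 18 were lower (75%) and 0 higher (limma; 19 and 1 at unadjusted p under 0.05). The 0 was 1 without B/B 1 h replicate 1, with quantile normalization, with the lowest 30% of genes left out and with a variance trend. Ccnb2, a mitotic cyclin, Birc5, the survivin subunit of the chromosomal passenger complex, and Nusap1, a spindle protein, fell by 0.74, 0.72 and 0.60 (log2). The median difference of the mitotic list was -0.26, against -0.44 for the replication set, and whether these medians differ was not tested.

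At 1 h, 1 of the 129 related genes was higher (0.775%) and 4 were lower (3.10%), shares near those of all genes (1.01% and 1.88%) and of genes at or above the median level (1.61% and 3.51%). These counts are thus no result about the lists. The higher one was Myc. The lower ones were chosen after their values were seen: E2f8 at -0.36, Dctpp1, a nucleotide pyrophosphatase, at -0.30, Shmt1, a folate enzyme, at -0.29 and Cdkn2c, a Cdk4/6 inhibitor, at -0.25 (log2). The calls of Dctpp1, Shmt1 and Cdkn2c were lost in 6, 6 and 7 of the 18 alternatives (limma adjusted p up to 0.0801, 0.0726 and 0.0852). For all 3 genes these included the fits without control array 2 or 3 or 1 h array 1 or 2. For Shmt1 and Cdkn2c they included the fit without control replicate 1. For Dctpp1 and Cdkn2c they included the fit with the washout group left out.

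**Figure D4:**
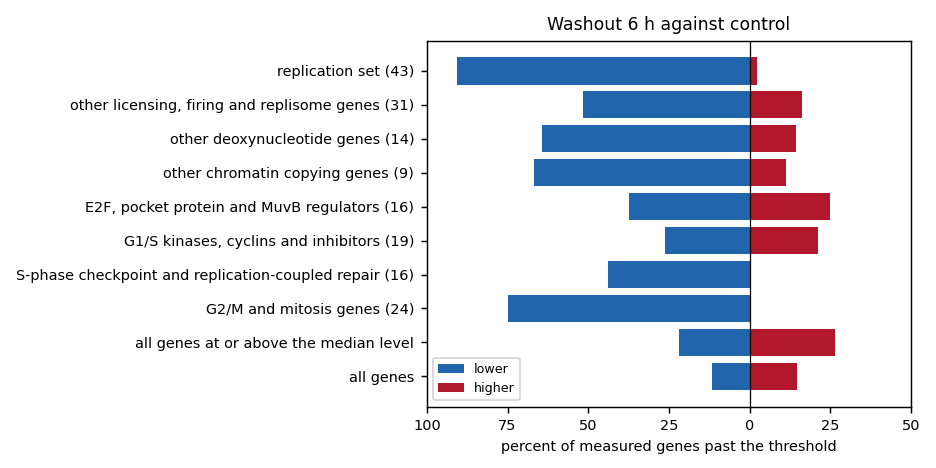
Percent of measured genes past the threshold after washout against control, lower to the left and higher to the right. Bars show the replication set, 7 related lists (number measured in brackets), all genes at or above the median level and all genes. The set reaches furthest to the left with 39 of 43 lower, and the mitotic list follows with 18 of 24. Of all genes 11.7% were lower and 14.5% higher, and of those at or above the median level 21.8% and 26.4%.

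Fibroblast markers moved in the same comparison, with 72.7% lower and 9.09% higher. Of all genes 11.7% were lower and 14.5% higher, and 21.8% and 26.4% of those at or above the median level. Lower and higher shares were 16.7% and 8.33% for leukocyte, 9.09% and 0% for epithelial and 0% and 9.09% for endothelial markers. Those counts lie near the shares of all genes and are no result about these lists. Of the 11 fibroblast markers, 8 were lower and 1 higher after washout, with Pdgfrb, a growth factor receptor gene, at -1.36, Col1a2, a collagen gene, at -0.99 and the receptor gene Pdgfra at 0.68 (log2), while Vim, the mesenchymal filament gene, stood at -0.01. Their mean level lay at 10.11 to 10.14 on the control, 10.12 to 10.15 on the B/B 1 h and 9.69 on the washout arrays. Of 12 leukocyte markers 1 was higher and 2 lower, with a mean level of 4.88 to 4.94 on the control, 5.05 to 5.10 on the B/B 1 h and 5.001 to 5.02 on the washout arrays. The higher one was Cd14, an endotoxin co-receptor gene, at 1.47. The 2 lower were 0 without control replicate 1 or washout replicate 2 or 3 and at an adjusted p under 0.01, and 1 without control replicate 2 or 3. The filter on the lowest 30% of genes removed both, at percentiles 14.0 and 21.9, so their calls were not tested there. The lower ones were Lyz2 and the pan-leukocyte gene Ptprc, at 3.39 ± 0.0769 in control and 3.20 ± 0.058 after washout (log2, SD, n = 3). At 1 h 4 leukocyte markers were higher (33.3%) and 0 lower (limma; 5 and 1 at unadjusted p under 0.05), Cd14, Cd68, Adgre1 and Cd79a. Of all genes 1.01% were higher and 1.88% lower at 1 h. Of 11 epithelial markers 0 were higher and 1 lower, the 1 being 0 without control replicate 1 or 3 or washout replicate 2 or 3, with probe sets averaged, with only 2 groups fitted and at an adjusted p under 0.01, and the 0 being 1 without washout replicate 3 and with the lowest 30% of genes left out, with a mean of 4.76 to 4.79 on the control, 4.80 to 4.86 on the B/B 1 h and 4.75 to 4.78 on the washout arrays. Of 11 endothelial markers 1 was higher, or 0 at an adjusted p under 0.01, and 0 lower (limma; 1 and 1 for epithelial and 2 and 0 for endothelial markers at unadjusted p under 0.05), with a mean of 4.38 to 4.44 on the control, 4.42 to 4.54 on the B/B 1 h and 4.40 to 4.50 on the washout arrays. The part of these shifts in the result on replication genes was not tested.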

How the data were processed

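RNA from Trizol extracts was labelled with biotin as cRNA for 9 one-colour Affymetrix arrays, per the labels' protocols. The authors deposited log2 probe set values, made with Partek 6.6 per the submitters' processing notes; the summary and normalization methods are not given in the sources used here. That the deposited values are log2 and normalized between arrays was read from the values, and base 2 is inferred, which limits every fold. No detection calls were used.

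A single gene symbol was given for 23521 of 41345 probe sets, more than 1 symbol for 1814 and no symbol for 16010. Genes were fitted by limma 3.58.1 (R 4.3.3; statmod 1.5.0) as 1 model of 3 group means with 6 residual and 3.38 prior degrees of freedom, adjusted by Benjamini-Hochberg over all 22180 genes. Replicate numbers follow accession order and pair nothing. The fit was tested on simulated data with independent normal errors, which hold no effect shared by the genes of an array. Of 50 genes changed 1.25-fold, 58% to 64% were recovered, depending on the comparison. At 2-fold 98% to 100% were recovered, with 10 or 11 false calls per comparison. Fewer genes were changed in the simulation than were called in the real comparisons, and the adjustment depends on that share. The recovery and false calls are thus not those of the real comparisons. Genes whose 9 values are given were those past the threshold at 1 h and, per role, the 2 highest and 2 lowest of those past it after washout, with others added after their values were seen. Genes outside the set were up to 3 per list by size, with Cdkn1a, Ccnd1 and Myc. The set and the lists were chosen with earlier results of these data known. The gene table, of GRCm38.p6, matched all 43 symbols. The 18 alternatives comprised 2 scalings, a filter on the lowest 30% of genes, averaged probe sets, a variance trend, a robust prior, array weights, only the 2 groups compared, adjusted p under 0.01 and each of the 9 arrays left out.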

Additional observations from a re-analysis of the deposited data

How the results depend on the processing

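After washout against control, the counts of 39 lower and 1 higher replication genes ran from 35 to 39 and stayed at 1 when 1 array was left out, and from 34 to 39 and at 1 under the other settings. Of the 40 called genes, 34 kept their call under all 18 alternatives. The exceptions were Fen1, Gins1, Gmnn, Mcm10, Rfc3 and Tyms. Orc2, which was not called, changed sign without control replicate 3 (0.0051) and without washout replicate 2 (2.8e-04), both close to 0, with a range of -0.0228 to 0.0051 over the left-out arrays. From 1 h to washout the 32 lower ran from 30 to 34 without 1 array and from 30 to 38 otherwise, and the 1 higher was 2 with a variance trend. At 1 h the 1 lower gene was 3 with a variance trend and 0 with array weights, with only the 2 groups compared and at an adjusted p under 0.01, and 0 to 1 without 1 array, while 0 were higher in every alternative. Genes differing among the 3 groups (moderated F-test), 39 of 43, ran from 34 to 39 without 1 array and from 34 to 40 otherwise. The cause of these shifts was not tested, beyond the fewer samples or stricter limit that some alternatives bring. An alternative for values that are not logged did not apply. No paired analysis was possible because the labels carry no replicate numbers.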
